A study of Mus musculus with 15 samples.

Results

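Il33 and Tslp, which encode alarmin cytokines, the alarmin receptor genes Il1rl1, Il1rap, Il17rb and Crlf2, and the IL-18 receptor genes Il18r1 and Il18rap were followed through sorted basophils, eosinophils and natural helper cells of mouse lung, before and after papain. These 8 genes were taken by name from a table of 21110 gene symbols, with earlier results of these data known. All 8 had a row and passed the filter on low values. Il33 rose in papain basophils and in papain eosinophils of both gates, from 0 or 1 to between 5 and 32 FPKM (fragment counts scaled to transcript length and library size, rounded to whole numbers). Of the 6 receptor chains 4 tested lower in papain basophils, as did 3.88% of all genes. Il18rap fell most, from 156 and 165 to 15 and 16 FPKM, and it alone also passed when only the basophil libraries were fitted. Summed basophil markers fell as well, from 5826 and 4982 to 592 and 1756 FPKM, and their part was not tested. Natural helper cells had the highest Il1rl1 and Il17rb of all groups and the lowest Il1rap, and naive natural helper cells the lowest Crlf2.

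Alarmins are cytokines that barrier and stromal cells release when they are damaged or irritated. IL-33, kept in the nucleus of epithelial, endothelial and fibroblastic cells, binds ST2 (Il1rl1), which signals only with the shared accessory chain IL-1RAcP (Il1rap). IL-25 binds IL-17RB (Il17rb) paired with IL-17RA, and TSLP binds its own chain (Crlf2) paired with the IL-7 receptor alpha chain. IL-18 belongs to the same family as IL-33 and uses a binding chain (Il18r1) and an accessory chain (Il18rap). In the lung, group 2 innate lymphoid cells (here called natural helper cells), basophils and eosinophils read these signals and answer with cytokines such as IL-4, IL-5 and IL-13.

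All 15 libraries came from lungs of C57BL6/J mice. Mice were untreated (naive) or received the protease papain, an inhaled allergen, into the nose at 50 ug per mouse on 3 days. Basophils were gated on FceR1 and CD49b without c-kit, natural helper cells on Thy1.2, CD25 and the IL-7 receptor alpha chain without lineage markers, and eosinophils on SiglecF with low Gr1 and no autofluorescence. Each naive population, papain basophils, papain natural helper cells, and papain eosinophils negative or positive for CD11c had 2 libraries. A single further library held papain natural helper cells labelled 3'UTRKO, whose deleted gene the labels do not name. Mouse age and the number of mice behind a library are not given in the sources used here. Nor do the labels say whether replicates came from separate mice, so every p-value reflects library-to-library spread alone, which may be technical.

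Each library's FPKM summed to between 374841 and 570208, which does not reveal the read depth. The sort labels were checked against marker genes. The 9 basophil markers summed to 5826 and 4982 FPKM in naive basophils but to only 592 and 1756 in papain basophils. The same sum was 721 and 374 in naive eosinophils, 168 to 330 in papain eosinophils and 14 to 22 in natural helper cells, so naive eosinophil replicate 1 exceeded papain basophil replicate 1. Most of the eosinophil sum was Hdc, the histamine-forming enzyme, at 716 and 360 in the naive libraries. Hdc was also the largest part of the basophil sums, at 2955 and 3199 in naive and 375 and 1188 in papain basophils. The 10 natural helper cell markers summed to between 1782 and 4140 in the libraries of that gate and to at most 549 elsewhere. In the eosinophil libraries the eotaxin receptor Ccr3 stood between 124 and 229 FPKM and Siglec5 (the gene of SiglecF) between 63 and 102. The granule gene Epx, however, was listed at 0 and 72 in naive, 5 and 0 in CD11c-negative and 0 and 0 in CD11c-positive eosinophils. The granule gene Prg2 was higher, at 86 and 1519 in naive, 273 and 343 in CD11c-negative and 585 and 653 in CD11c-positive eosinophils. In these libraries Ear6 was between 88 and 333 and Prg3 between 0 and 63. Markers of other cells were also present. The 9 T cell markers summed to 287 to 299 FPKM in naive and 174 to 214 in papain natural helper cells, and to 161 in the 3'UTRKO library. Their sum was 1 to 3 in naive and 20 to 124 in papain eosinophils, and 4 to 77 in naive and 9 to 146 in papain basophils. The part of T cells was not tested. The 7 neutrophil markers summed to between 6399 and 16520 FPKM in the eosinophil libraries. They summed to 232 and 506 in naive against 3148 and 7464 in papain basophils. S100a8, S100a9 and Retnlg made up most of each sum, while Camp was at most 27 and Mmp8 at most 11 in eosinophil libraries. Ngp was 119 in naive eosinophil replicate 2 and at most 21 in the other eosinophil libraries. Ltf was between 5 and 84 in eosinophil libraries, and 5 and 0 in naive against 7 and 250 in papain basophils. In papain basophils 2 of the 7 were called higher by the test described next, beside 22.1% of all genes.

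Differences below are differences in log2(FPKM + 1), given ± the standard error. A gene is called when its Benjamini-Hochberg adjusted p over 14257 genes (limma, two-sided) was under 0.05. In basophils 5 of the 8 genes were called for papain (Il33 higher; Il1rl1, Crlf2, Il18r1 and Il18rap lower), beside 26.0% of all genes tested. The median difference of the 6 receptor chains was -1.08 there, against 0.50 for all genes. Among natural helper cells none was called, beside 0.786% of all genes; 3 had an unadjusted p under 0.05, and the receptor chains' median was 0.64 against 0.09 for all genes. In CD11c-negative eosinophils 1 was called (Il33, higher), beside 2.24% of all genes. In CD11c-positive eosinophils 2 were called (Il33 higher, Il18rap lower), beside 12.1%. The receptor chains' medians in these gates, 0.10 and 0.46, lay near those of all genes, 0.21 and 0.34. Both eosinophil comparisons use the same naive libraries.

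**Figure D1:**
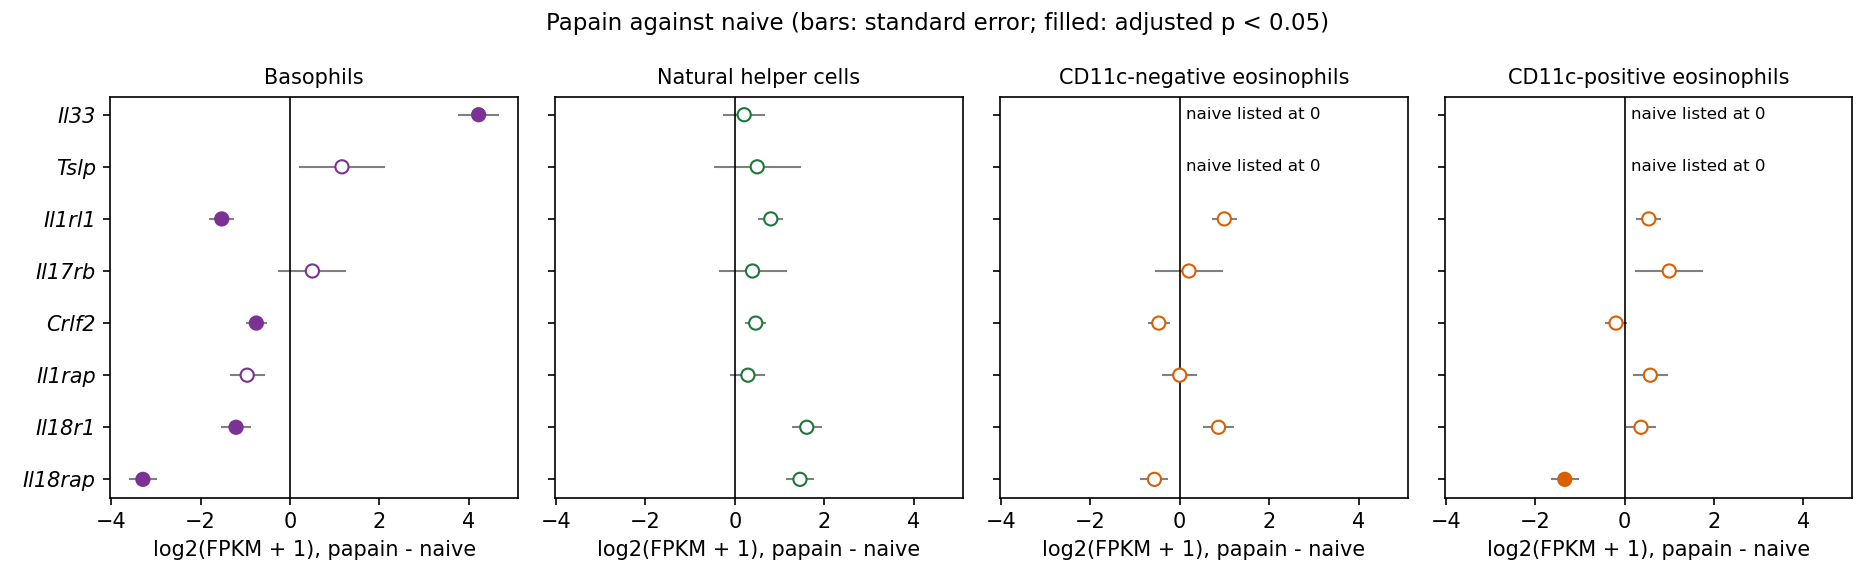
Difference in log2(FPKM + 1), papain minus naive, for each gene in basophils, natural helper cells and both eosinophil gates; bars are standard errors and filled points passed an adjusted p of 0.05. Il33 lies to the right and 4 receptor chains lie to the left with filled points in basophils, and no point is filled in natural helper cells. No difference is drawn where the naive libraries are listed at 0.

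Il33 was almost silent in the naive libraries and appeared with papain in the granulocyte gates. In basophils its level was 1 and 0 FPKM before papain and 20 and 32 after it. In eosinophils it was listed at 0 and 0 in naive libraries, at 11 and 5 in CD11c-negative and at 13 and 7 in CD11c-positive papain libraries. Naive and papain libraries did not overlap in any of these comparisons. Natural helper cells stayed low, at 2 and 2 naive and 2 and 3 after papain.

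The papain difference of Il33 in basophils was 4.22 ± 0.47 (adjusted p = 0.000689). Against naive eosinophils at 0 no fold is given; the adjusted p was 0.0124 for the CD11c-negative and 0.00308 for the CD11c-positive gate. The natural helper cell difference was 0.21 ± 0.47 (adjusted p = 1). The CD11c-negative call was lost without naive eosinophil replicate 1 (adjusted p = 0.108) or 2 (0.0764), or CD11c-negative replicate 1 (0.092), and with a pseudocount of 5 (0.0645). Among papain groups the order ran from basophils down to CD11c-positive eosinophils, without overlap, and then to CD11c-negative eosinophils, whose libraries overlapped those of the CD11c-positive gate.

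Many genes of cells known to make IL-33 moved with it in the basophil and eosinophil libraries. The counts below stand beside 22.1% of all genes called higher with papain in basophils, 1.87% in CD11c-negative and 9.93% in CD11c-positive eosinophils. The 7 fibroblast markers (among them Col1a1, Col3a1 and Dcn) summed to 11 and 3 FPKM before papain and to 810 and 228 after it in basophils, and all 7 were called higher there. In naive eosinophils they summed to 1 and 4, against 411 and 267 in the CD11c-negative gate (6 of 7 called higher) and 644 and 624 in the CD11c-positive gate (7 of 7). The 8 blood endothelium markers summed to 12 and 1 before and to 104 and 304 after papain in basophils (7 of 8 called higher). They reached 15 to 43 in papain eosinophils, where 3 of 8 were called in the CD11c-positive gate. The surfactant gene Sftpc, a marker of alveolar epithelium, was 76 and 1 FPKM before and 498 and 760 after papain in basophils, 9 and 15 in naive eosinophils, and between 410 and 1183 in papain eosinophils. It is 1 of 13 epithelial markers, whose sum was already 6704 to 8782 in naive basophils, where Il33 was 1 and 0. That sum was 20945 to 35752 in papain basophils, 732 to 1827 in naive and 6727 to 10138 in papain eosinophils. Scgb1a1 made up most of it, at 6363 and 8531 in naive basophils. Cdh1 was 139 and 150 before and 39 and 121 after papain in basophils. In papain basophils Il33, Sftpc and the endothelial sum were higher in replicate 2, whereas the fibroblast sum was higher in replicate 1. The naive and papain natural helper cell libraries held 253 to 415 FPKM of fibroblast markers with 2 or 3 FPKM of Il33. The part of other cells in the Il33 result was not tested, and in sorted bulk samples more cells of a type and more RNA per cell cannot be told apart.

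**Figure D2:**
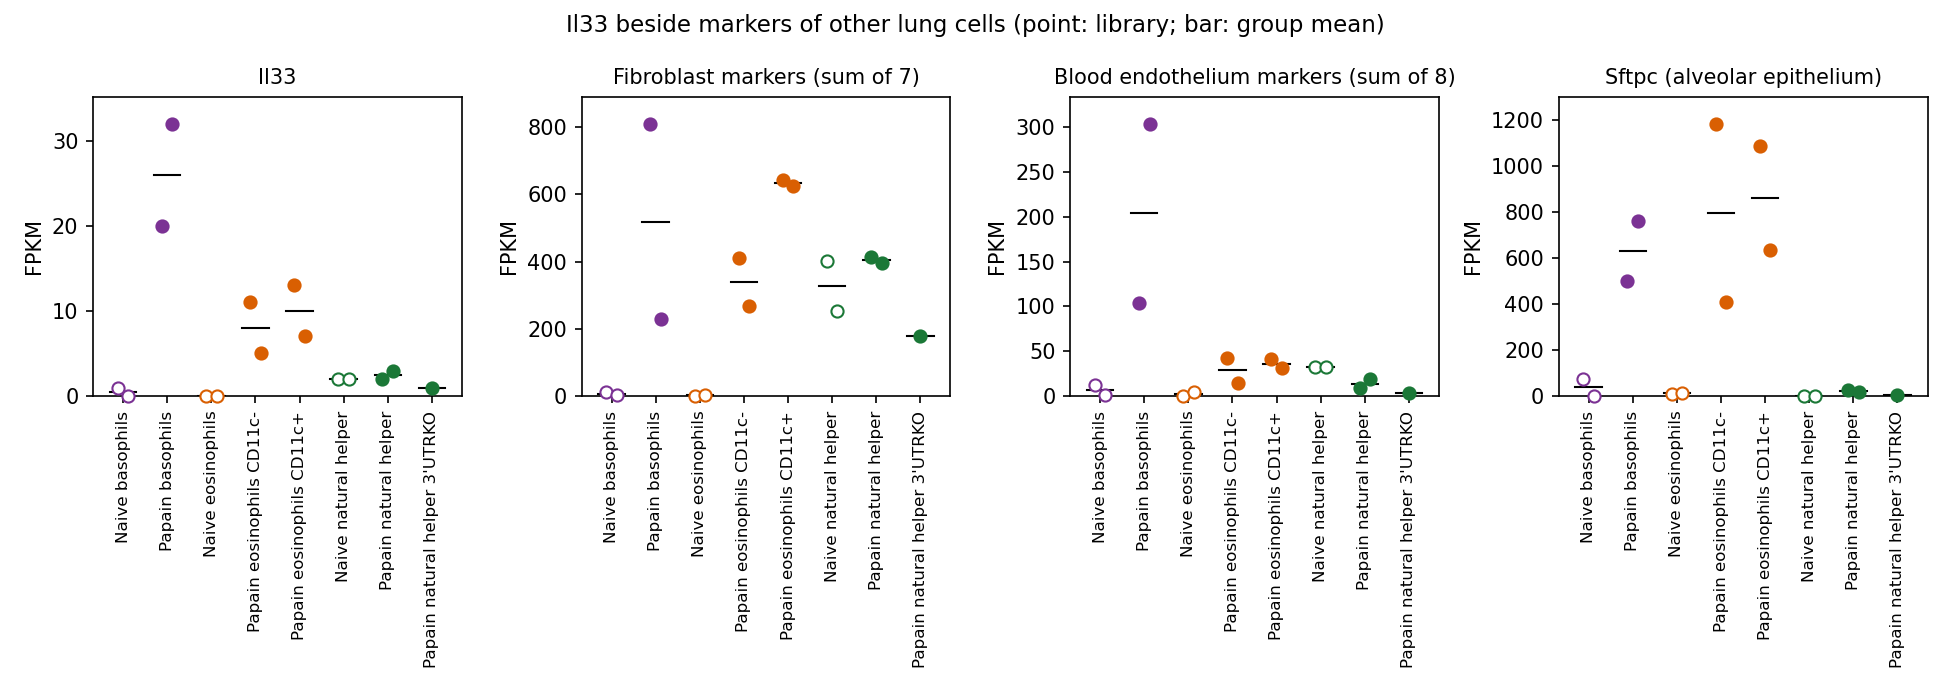
FPKM of Il33, of the summed fibroblast and blood endothelium markers and of Sftpc in each library (points; open naive, filled papain; bars are group means). All 4 quantities are at 15 FPKM or less in naive eosinophils and higher in papain eosinophils, while natural helper cells carry fibroblast markers with at most 3 FPKM of Il33.

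Tslp was low throughout and uneven between replicates. In basophils it was 1 and 0 FPKM before and 9 and 0 after papain, so these groups overlapped. Naive eosinophils were listed at 0 and 0, the CD11c-negative gate at 3 and 2 and the CD11c-positive gate at 5 and 19. Natural helper cells had at most 1 FPKM in every library. The CD11c-positive difference missed the threshold (adjusted p = 0.0509) and passed it without CD11c-positive replicate 1 (0.0473) and under both other scalings (0.0483 and 0.0489). In basophils the difference was 1.16 ± 0.97 (adjusted p = 0.418), and it passed only when papain basophil replicate 2, the library at 0, was left out (0.0392). Il25, which encodes the third alarmin of this kind, was listed at 0 in all 15 libraries.

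Il1rl1, the IL-33 receptor, was expressed in every population and most in natural helper cells. Naive natural helper cells had 244 and 288 FPKM and papain ones 436 and 492. Naive basophils had 98 and 79, naive eosinophils 38 and 72. The naive natural helper cell libraries exceeded those of basophils by 1.58 ± 0.28 (adjusted p = 0.00477) and those of eosinophils by 2.32 ± 0.28 (adjusted p = 0.000356). Il1rl1 has a membrane and a soluble product; the table gives 1 value per symbol, so they are not separated.

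With papain the IL-33 receptor chain fell in basophils and passed the test in no other cell. Basophil Il1rl1 went to 27 and 33 FPKM, below both naive libraries, a difference of -1.53 ± 0.28 (adjusted p = 0.00575). In CD11c-negative eosinophils it stood at 105 and 106, above both naive libraries, with a difference of 1.00 ± 0.28 (adjusted p = 0.122). That comparison passed when naive eosinophil replicate 2 was left out (0.0381), as did the CD11c-positive gate (84 and 70 FPKM; 0.24 with all libraries, 0.0498 without that one). In natural helper cells the papain libraries lay above the naive ones, but the difference of 0.80 ± 0.28 did not pass (adjusted p = 0.30). Papain basophils held the lowest Il1rl1 of the 8 groups, without overlap with the next group, naive eosinophils.

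The RefSeq promoter windows of the genes (GRCm38.p6; 250 bases before and 50 after each listed start) were searched for GATA motifs, since basophils and natural helper cells express different GATA factors: Gata2 stood at 664 and 845 FPKM in naive basophils and at most 1 in natural helper cells, and Gata3 at 168 to 273 in natural helper cells and at most 7 elsewhere. The motif was AGATAA, with T also allowed as its opening base and G as its closing base, on both strands. It occurs in 29.8% of 32851 windows. The upstream Il1rl1 window holds 5 matches, a number that 0.0548% of windows reach or exceed; the downstream Il1rl1 window and the Il18rap window hold 1 each. The windows of Il33, Il17rb, Crlf2, Il1rap and Il18r1 hold none. The stretches below, on the plus strand, show matches in the 2 Il1rl1 windows and in Il18rap, with the matched letters in capitals.
Il1rl1 upstream start, 217 bases before it, chr1:40429341-40429370: gaaggtccatggAGATAAgggtaaaactgg
Il1rl1 upstream start, 80 bases before it, chr1:40429478-40429507: ctgtaaagtaacTGATAAggaaacagggag
Il1rl1 downstream start, 103 bases before it, chr1:40439514-40439543: aaacagcattgtTTATCTcagcttcactga
Il18rap start, 210 bases before it, chr1:40515140-40515169: cactctcctcatTGATAAattattgctctg
A match is a description of these letters and not a measured binding site. Of 4 other motifs searched, TGTGGT (RUNX) was found in a window of Il1rl1, Crlf2, Il18r1 and Il18rap each and occurs in 16.8% of all windows. TGANTCA (AP-1) was found once in the Il17rb window (7.8% of all windows hold it). TTCNNNGAA (STAT) was found 2 times in a window of Il18r1 (8.3%). A loose NF-kB pattern was found 5 times in the Crlf2 and 6 times in the Il1rap window, and 3.16% of windows hold 5 or more matches. The Il17rb window and a window of Il18r1 hold 1 match each, and 50.8% of windows hold the pattern.

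Il1rap, the accessory chain that ST2 needs, was lowest where Il1rl1 was highest, in natural helper cells. Naive basophils had 16 and 15 FPKM, naive eosinophils 11 and 11, and naive natural helper cells only 3 and 1. The naive natural helper cell difference was -2.54 ± 0.39 against basophils (adjusted p = 0.00256) and -2.09 ± 0.39 against eosinophils (0.00415). Every natural helper cell library, including papain at 2 and 3 and 3'UTRKO at 3, lay below every library of the other cells, which started at 5. At these low whole-number values rounding alone moves the log2 value. In natural helper cells Il1rl1 was 61.3 to 146 times Il1rap (ratio of FPKM + 1), against 2.33 to 8.92 times in the other libraries.

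With papain, Il1rap was 11 and 5 FPKM in basophils, 11 and 11 in CD11c-negative and 15 and 19 in CD11c-positive eosinophils. The basophil libraries lay below the naive ones, but the difference of -0.96 ± 0.39 did not pass (adjusted p = 0.105). It passed when papain basophil replicate 1 was left out (0.0329) and under median-ratio scaling (0.0186) and quantile normalization (0.0111).

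**Figure D3:**
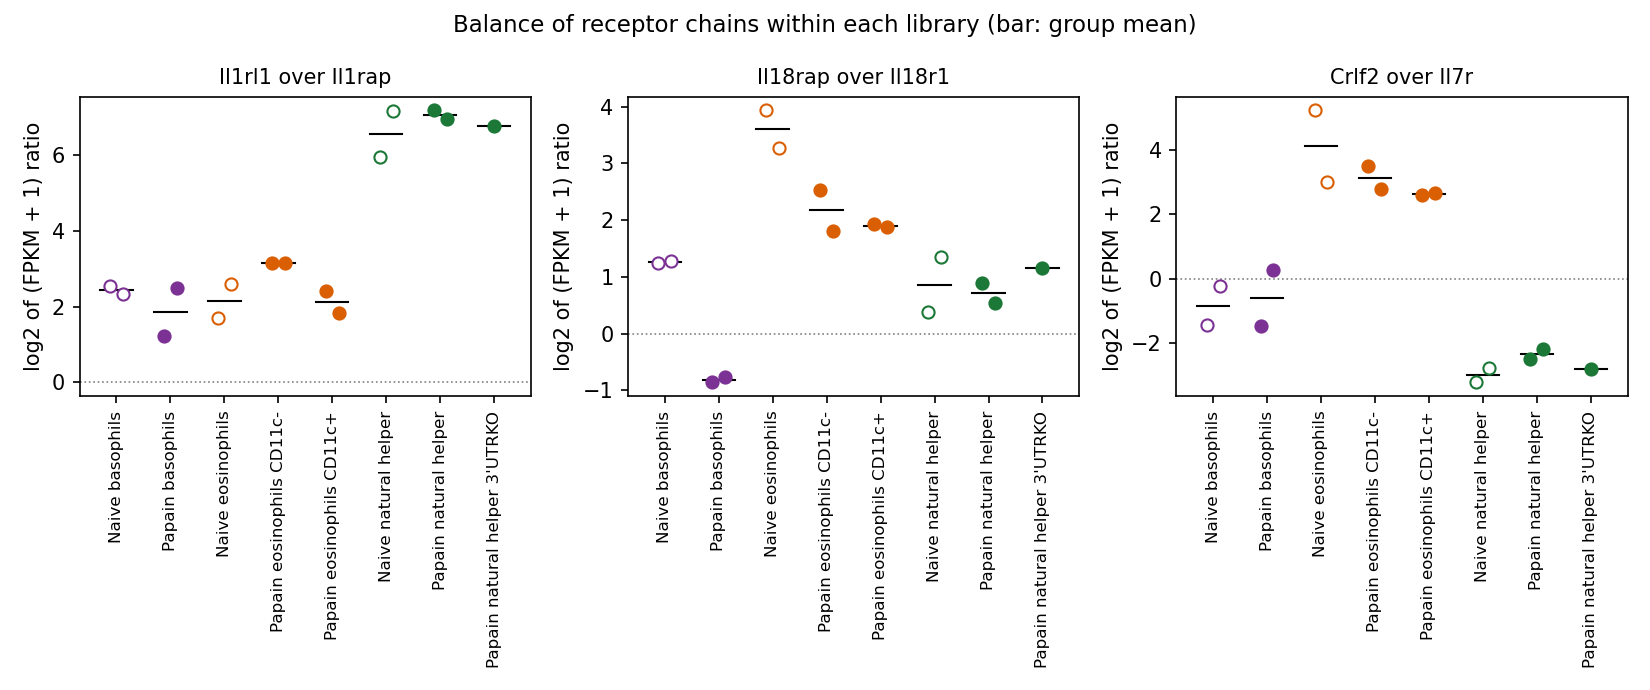
Log2 ratio of FPKM + 1 of Il1rl1 to Il1rap, Il18rap to Il18r1 and Crlf2 to Il7r in each library (points; open naive, filled papain; bars are group means). Natural helper cells stand at 5.94 or above for Il1rl1 over Il1rap, and papain basophils are the only group below 0 for Il18rap over Il18r1.

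Il17rb, the IL-25 receptor chain, was largely a natural helper cell transcript. In natural helper cells it had 64 and 53 FPKM before and 91 and 65 after papain, and 122 in the 3'UTRKO library. Basophils had 2 and 3 naive and 11 and 1 with papain. Eosinophils had 0 to 3 in all 6 libraries. Naive natural helper cells exceeded naive basophils by 4.10 ± 0.76 (adjusted p = 0.00642) and naive eosinophils by 5.10 ± 0.76 (0.00125). Papain changed it by 0.40 ± 0.76 in natural helper cells (adjusted p = 0.977) and 0.50 ± 0.76 in basophils (0.684). Its partner Il17ra was 23 to 31 FPKM in natural helper cells and 38 to 67 in eosinophils, so eosinophils held the shared chain with almost no Il17rb.

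Crlf2, the TSLP-binding chain, was highest in eosinophils. Naive eosinophils had 111 and 86 FPKM, naive basophils 57 and 75 and naive natural helper cells 23 and 25. Natural helper cells lay below basophils by -1.41 ± 0.24 (adjusted p = 0.00426) and below eosinophils by -1.98 ± 0.24 (0.000392); basophils minus eosinophils gave -0.57 ± 0.24 (adjusted p = 0.172). Papain eosinophils had 66 and 75 (CD11c-negative) and 84 and 87 (CD11c-positive), neither called (adjusted p = 0.437 and 0.64). Natural helper cells had 34 and 33 after papain (0.47 ± 0.24, adjusted p = 0.536).

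In basophils Crlf2 fell with papain to 30 and 49 FPKM, below both naive libraries, by -0.75 ± 0.24 (adjusted p = 0.0479). That call was lost without naive basophil replicate 2 (adjusted p = 0.259) or papain basophil replicate 1 (0.194). It was also lost with no filter on low values (0.0518).

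The second chain of the TSLP receptor, Il7r, was distributed in the opposite way, and in natural helper cells it was part of the sort gate. Eosinophils had 2 and 10 FPKM before and 5 to 13 after papain, basophils 156 and 88 before and 85 and 40 after it, and natural helper cells 151 to 229. Naive basophils exceeded naive eosinophils by 4.36 ± 0.61 (adjusted p = 0.00165). Crlf2 was 6.07 to 37.3 times Il7r in eosinophils (FPKM + 1), whereas Il7r was the higher of the 2 in every natural helper cell library.

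The IL-18 receptor chains were highest in naive basophils and fell there with papain. Il18r1 was 65 and 67 FPKM before and 28 and 28 after papain, a difference of -1.21 ± 0.34 (adjusted p = 0.0316). Il18rap was 156 and 165 before and 15 and 16 after papain, a difference of -3.29 ± 0.31 (adjusted p = 0.000453). Neither pair of groups overlapped. The Il18r1 call was lost when any of the 4 basophil libraries was left out: naive replicate 1 (0.0794) or 2 (0.135), papain replicate 1 (0.0827) or 2 (0.0928). The Il18rap call was kept in all 11 alternatives run, with an adjusted p of at most 0.0155. The accessory chain fell further than the binding chain, so the log2 ratio of Il18rap to Il18r1 went from 1.25 and 1.29 to -0.86 and -0.77.

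In natural helper cells both IL-18 receptor chains lay higher with papain, without overlap. Il18r1 was 22 and 10 FPKM before and 49 and 46 after papain, a difference of 1.61 ± 0.34 (adjusted p = 0.0885). Il18rap was 29 and 27 before and 92 and 67 after papain, a difference of 1.46 ± 0.31 (adjusted p = 0.0914). Neither passed, although Il18r1 did without naive natural helper cell replicate 1 (0.0226) and with a pseudocount of 5 (0.0387).

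Eosinophils carried Il18rap almost without Il18r1. Naive eosinophils had 2 and 2 FPKM of Il18r1, and papain ones 2 to 5. Il18rap was 45 and 28 in naive, 28 and 20 in CD11c-negative and 18 and 10 in CD11c-positive eosinophils. The CD11c-positive difference was -1.34 ± 0.31 (adjusted p = 0.0281), and it was lost without naive eosinophil replicate 1 (0.186) or CD11c-positive replicate 2 (0.139). In the CD11c-negative gate it was -0.57 ± 0.31 (adjusted p = 0.474), with libraries that overlapped the naive ones at 28.

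**Figure D4:**
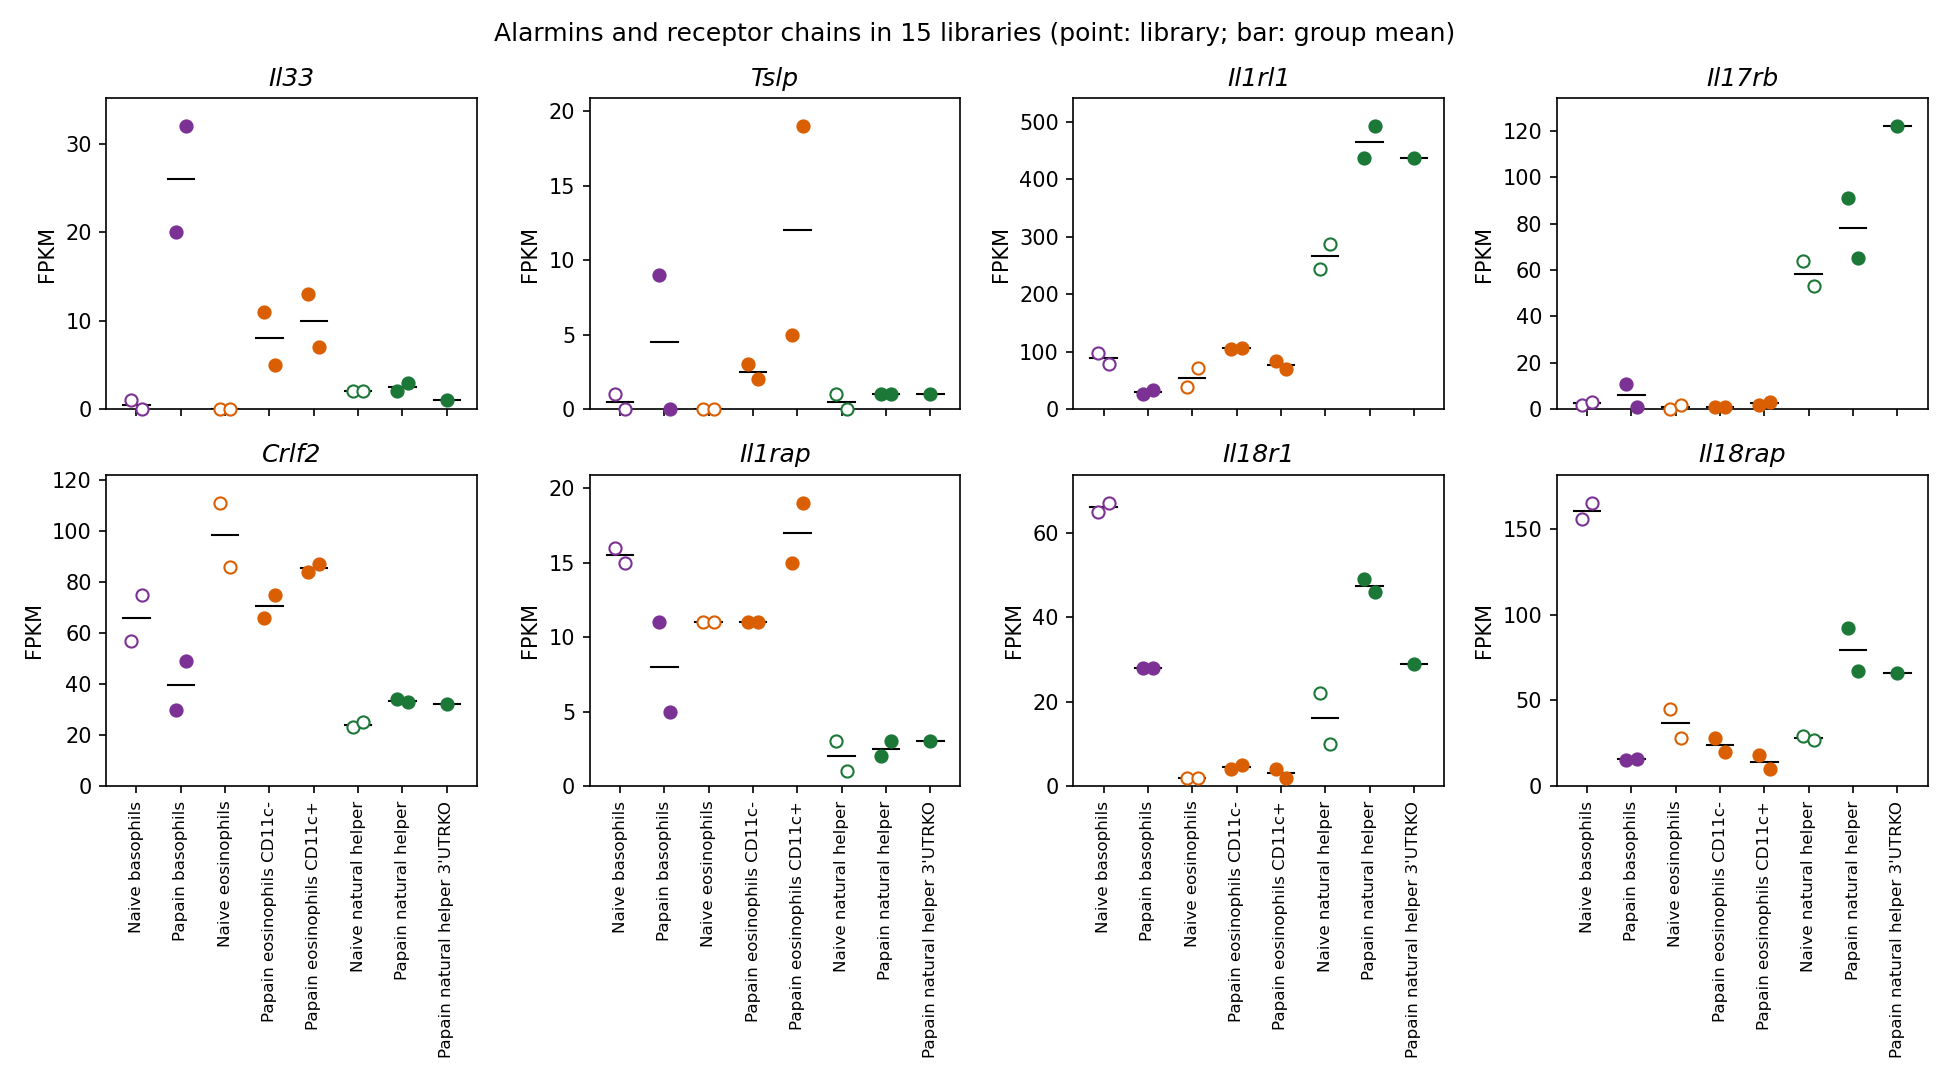
FPKM of each of the 8 genes in each of the 15 libraries, by group (points; open naive, filled papain; bars are group means; each panel has its own linear axis from 0). Il1rl1 and Il17rb are highest in natural helper cells, Crlf2 in naive eosinophils, and Il18r1 and Il18rap in naive basophils.

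The basophil falls were set beside the 9 basophil markers, whose median difference with papain was -2.96. Of these 7 were called lower, beside 3.88% of all genes. Mcpt8, a basophil granule protease, was 824 and 252 FPKM before and 30 and 95 after papain. Ms4a2, a chain of the IgE receptor used in the gate, was 47 and 50 before and 5 and 5 after papain. Il18rap fell by more than 7 of the 9 markers did, while Il1rl1 and Il18r1 fell by less than 8 of them and Crlf2 by less than all 9. The papain basophil libraries also gained other cells' markers, in counts that stand beside 22.1% of all genes called higher. These were 10 of 13 epithelial, 7 of 7 fibroblast and 5 of 7 lymphatic endothelium markers. Of alveolar macrophage markers 2 of 6 were called higher, nearer to that share. Their sum of 7 and 8 FPKM before and 739 and 54 after papain stood apart in replicate 1. So did the macrophage gene Lyz2 (4074 against 368 in replicate 2). Mast cell and B cell markers lay lower beside the receptors, with counts to set beside the 3.88% of all genes called lower. The mast cell sum was 295 and 358 before and 153 and 4 after papain (1 of 5 tested called lower). The B cell sum was 190 and 353 before and 104 and 33 after it (3 of 7 called lower). The part of a changed cell mixture in the receptor falls was not tested. In a fit of the 4 basophil libraries alone only Il18rap passed (adjusted p = 0.0155); Il33 (0.0797), Il1rl1 (0.0918), Il18r1 (0.0598) and Crlf2 (0.287) did not.

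**Figure D5:**
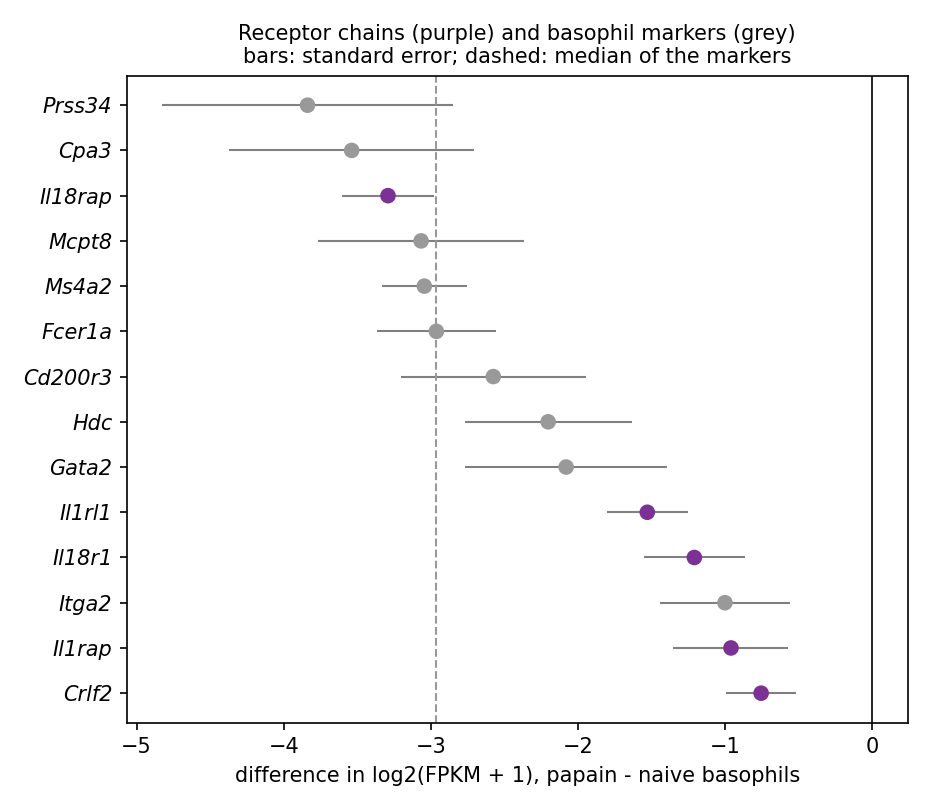
Difference in log2(FPKM + 1), papain minus naive basophils, for 5 receptor chains (purple) and 9 basophil markers (grey), with standard errors; the dashed line is the markers' median of -2.96. Il18rap lies among the markers with the largest falls, and Il1rl1, Il18r1, Il1rap and Crlf2 lie between -1.53 and -0.75.

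The scale of the table bears on these directions. The median difference of all genes in the basophil comparison was 0.50 as deposited, 0.16 with median-ratio scaling and -0.08 when quantiles were equalised. Under these scalings the falls were larger: Il1rl1 by -2.03 and -1.91, Crlf2 by -1.26 and -1.20, Il18r1 by -1.71 and -1.64 and Il18rap by -3.79 and -3.63. Il33 rose by 4.09 and 3.92. Of all genes called in this comparison, 85.1% were higher as deposited, 65.5% with median-ratio scaling and 45.4% when quantiles were equalised. More genes were thus called lower under these scalings, and the share of 3.88% called lower holds for the deposited scale.

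Tests of the difference between papain responses found 4 of the 8 genes to respond differently in basophils and natural helper cells, beside 6.75% of all genes. Il18rap differed by -4.75 ± 0.44 (adjusted p = 0.00181), Il18r1 by -2.82 ± 0.48 (0.0129), Il1rl1 by -2.33 ± 0.39 (0.0115) and Il33 by 4.01 ± 0.66 (0.0108), each as basophil minus natural helper cell response. The Il33 difference was lost without papain natural helper cell replicate 1 (0.0565), and that of Il18r1 without the same library (0.0608) or naive basophil replicate 2 (0.0518). Without papain basophil replicate 2 the Crlf2 difference passed as well (0.0179 against 0.0693).

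Between basophils and CD11c-negative eosinophils 2 of the 8 responses differed, beside 2.36% of all genes: Il1rl1 by -2.53 ± 0.39 (adjusted p = 0.0139) and Il18rap by -2.73 ± 0.44 (0.0175). The Il1rl1 difference was lost without naive basophil replicate 2 (0.0558), CD11c-negative replicate 1 (0.0533) or 2 (0.0613). That of Il18rap was lost without naive basophil replicate 2 (0.0845), naive eosinophil replicate 2 (0.0688) or CD11c-negative replicate 1 (0.0688). Between natural helper cells and CD11c-negative eosinophils none of the 8 passed in limma, beside 1.21% of all genes, and 3 had an unadjusted p under 0.05.

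Among naive cells, 6 of the 8 genes were called between natural helper cells and basophils (20.6% of all genes) and 6 between natural helper cells and eosinophils (28.1%). Between basophils and eosinophils 2 were called (14.0%). Those 2 were Il18r1, 4.48 ± 0.34 higher in basophils (adjusted p = 0.000106), and Il18rap, 2.14 ± 0.31 higher (0.00218). Natural helper cells held less Il18r1 than basophils (-2.07 ± 0.34, adjusted p = 0.00363) but more than eosinophils (2.41 ± 0.34, 0.000934). The remaining call was Il33 at 2 and 2 FPKM in natural helper cells against 0 and 0 in eosinophils (adjusted p = 0.033). It was lost when any of these 4 libraries was left out, with adjusted p between 0.11 and 0.123, and with a pseudocount of 5 (0.245) or quantile normalization (0.055). Il1rl1 missed the threshold between basophils and eosinophils (0.74 ± 0.28, adjusted p = 0.122) and passed without naive eosinophil replicate 2 (0.0173) and under both other scalings (0.0287 and 0.0176).

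Among papain cells, 5 of the 8 were called between natural helper cells and basophils (19.7% of all genes), 6 between natural helper cells and CD11c-negative eosinophils (16.6%) and 2 between basophils and CD11c-negative eosinophils (11.4%). Il1rl1 was 3.91 ± 0.28 higher in papain natural helper cells than in papain basophils (adjusted p = 0.000178), and Il18rap 2.27 ± 0.31 higher (0.00196). Il17rb was higher by 3.99 ± 0.76 (0.00914), a call lost without papain natural helper cell replicate 1 (0.0797). Il33 was lower by -2.93 ± 0.47 (0.0041). Il1rap was lower by -1.29 ± 0.39 (0.0483) and lost that call without papain basophil replicate 1 (0.169) or papain natural helper cell replicate 1 (0.248) or 2 (0.111), as well as with a pseudocount of 0.5 (0.0568) or no filter (0.0539).

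Against CD11c-negative eosinophils, papain natural helper cells had more Il17rb (5.28 ± 0.76, adjusted p = 0.00183), Il18r1 (3.15 ± 0.34, 0.000462), Il1rl1 (2.12 ± 0.28, 0.00109) and Il18rap (1.69 ± 0.31, 0.00643) and less Il1rap (-1.79 ± 0.39, 0.0142) and Crlf2 (-1.05 ± 0.24, 0.0178). The Crlf2 call was lost without any 1 of the 4 libraries (0.0698 to 0.0974). The Il1rap call was lost without CD11c-negative replicate 1 (0.0845) or 2 (0.0681) or papain natural helper cell replicate 1 (0.107), and the Il18rap call without CD11c-negative replicate 2 (0.0506) or papain natural helper cell replicate 1 (0.0613). Papain basophils had less Il1rl1 than CD11c-negative eosinophils (-1.79 ± 0.28, adjusted p = 0.00511) and more Il18r1 (2.41 ± 0.34, 0.00317). Without papain basophil replicate 2, Crlf2 (0.0197) and Il17rb (0.0452) passed there as well; with a pseudocount of 5 Il33 (0.0212) and Crlf2 (0.0453) did, and Crlf2 did after quantile normalization (0.0463).

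Fits of only the compared groups rest on fewer libraries and changed further calls. Lost there were Il33 in CD11c-negative (adjusted p = 0.0828) and Il18rap in CD11c-positive eosinophils (0.179), and Il18rap between naive basophils and eosinophils (0.0568). Naive natural helper cells lost Il1rap and Il18r1 against basophils (0.0733 and 0.0995) and against eosinophils (0.0606 and 0.0539). Papain natural helper cells lost Il33 (0.0605), Il17rb (0.155) and Il1rap (0.208) against basophils and Il18rap against CD11c-negative eosinophils (0.0524). The Il1rl1 difference of responses between basophils and CD11c-negative eosinophils was lost as well (0.0837). Gained were Tslp in CD11c-negative eosinophils (0.0426), the Il18r1 difference of responses between basophils and CD11c-negative eosinophils (0.00831, and 0.0382 with median-ratio scaling in the fit of all libraries), and that of Il33 between natural helper cells and CD11c-negative eosinophils (0.0402).

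Between the CD11c gates of papain eosinophils none of the 8 was called in limma, beside 0.0561% of all genes. Il18rap alone had an unadjusted p under 0.05 (-0.77 ± 0.31, positive minus negative, adjusted p = 0.535). The 3'UTRKO group is 1 library, so its spread is borrowed from the other groups and a missed threshold there does not show likeness. Against papain natural helper cells none of the 8 was called in limma (0.568% of all genes), with 0 at an unadjusted p under 0.05. The 3'UTRKO library had 122 FPKM of Il17rb, 29 of Il18r1, 66 of Il18rap, 32 of Crlf2, 437 of Il1rl1 and 1 of Il33.

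The rest of the receptor pathways was read from 6 gene lists. Their counts in basophils stand beside 22.1% of all genes called higher and 3.88% called lower with papain, those in natural helper cells beside 0.540% and 0.245%, and those in eosinophils beside 1.87% and 0.372% (CD11c-negative) or 9.93% and 2.20% (CD11c-positive). Of 4 other IL-1 family receptor chains tested, only Il1r1, the signalling IL-1 receptor, was called with papain in basophils, at 2 and 2 FPKM naive and 22 and 13 with papain (2.58 ± 0.36, adjusted p = 0.00192). It was also called in both eosinophil gates, from 0 and 0 to 9 and 6 and to 14 and 21. For natural helper cells the called chain was the decoy receptor Il1r2, from 6 and 2 to 66 and 68 (3.89 ± 0.52, adjusted p = 0.0111). On chromosome 1 RefSeq orders these genes as Il1r2, Il1r1, Il1rl2, Il1rl1, Il18r1 and Il18rap. Of 8 tested genes of this neighbourhood, 3 were called lower in papain basophils (Il1rl1, Il18r1 and Il18rap) and 2 higher (Il1r1 and, named after its values were seen, Slc9a4, from 0 and 0 to 4 and 2 FPKM).

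Downstream of these receptors, 7 of 23 MyD88 and NF-kB signalling genes were called lower in papain basophils (3.88% of all genes) and none higher. Irak3, an inhibitory kinase of this pathway, went from 165 and 147 to 35 and 45 FPKM (-1.95 ± 0.23, adjusted p = 0.00102), and the NF-kB subunit Rel from 95 and 86 to 36 and 22 (-1.65 ± 0.28, 0.0044). None of the 23 was called in natural helper cells (5 at an unadjusted p under 0.05), 1 in CD11c-negative and 4 in CD11c-positive eosinophils, all lower. Of 7 TSLP receptor signalling genes, Jak2, a kinase bound to the TSLP receptor, fell in basophils from 416 and 393 to 115 and 152 (-1.61 ± 0.20, adjusted p = 0.0012). Stat3 rose in natural helper cells from 52 and 45 to 153 and 172 (1.73 ± 0.30, 0.0386). Of 7 IL-25 and IL-17 receptor signalling genes, the adaptor Traf3ip2 was called lower in basophils (15 and 16 to 5 and 7 FPKM, adjusted p = 0.0233). The 2 called higher, Il17rc and Il17re, are named after their values were seen; both were listed at 0 in naive basophils and averaged 3 and 4.5 FPKM with papain. In the list of other IL-1 family ligands, 2 of 6 were called higher in basophils. These were Il1f9, the IL-36 gamma gene, and Il1rn, the IL-1 receptor antagonist, at 63 and 32 naive and 166 and 632 with papain (adjusted p = 0.0268).

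Of 7 cytokines that alarmins can induce, basophils had 3 called lower (Il4, Il6 and Il13) and 1 higher (Il5, from 0 and 0 to 12 and 9 FPKM) with papain. Of the natural helper cell markers, of which Il5 is 1, 2 of 10 were called higher there (Il5 and Id2), beside 22.1% of all genes. The list was mixed. Thy1 was 9 and 1 before and 59 and 9 after papain, and Icos 5 and 0 before and 114 and 0 after it. Klrg1 was 2 and 0 in both states, and Il7r was 156 and 88 before and 85 and 40 after papain. The part of natural helper cells in the basophil Il5 call was not tested. Il4 went from 353 and 319 to 42 and 122 FPKM (-2.21 ± 0.40, adjusted p = 0.00591) and Il13 from 169 and 226 to 20 and 71 (-2.34 ± 0.55, 0.0165). None of the 7 was called in natural helper cells (1 at an unadjusted p under 0.05), where Il5 was already 501 and 2283 in naive libraries and 2379 and 2350 with papain. In eosinophils Il5 was called higher in both gates, from 0 and 0 to 25 and 15 (CD11c-negative, adjusted p = 0.0069) and to 16 and 14 (CD11c-positive, 0.00368). Il6, called lower in basophils, was called higher in the CD11c-positive gate, from 91 and 75 to 441 and 440 FPKM (2.40 ± 0.31, adjusted p = 0.00233). Among natural helper cell markers in these gates, Thy1 was 0 and 0 in naive, 5 and 12 in CD11c-negative and 14 and 26 in CD11c-positive libraries. Klrg1 was 1 and 1 in naive, 3 and 3 in CD11c-negative and 1 and 0 in CD11c-positive libraries. In the same order Icos was 0 and 0, 4 and 11, and 10 and 23. Rora was 0 and 0, 3 and 3, and 3 and 9. Gata3 was 0 and 0, 2 and 3, and 3 and 1. Il2ra was 1 and 3, 4 and 8, and 7 and 9. Id2 was 291 and 345, 262 and 366, and 407 and 453. The part of natural helper cells was not tested.

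The genes most like each of the 8 across the 15 libraries were found by Pearson correlation of log2(FPKM + 1) among 4611 genes. The libraries share cell type, gate and unknown depth, so the values describe likeness only. Il33 was most like Yap1 (0.97), Cebpd (0.97) and Cryab (0.97). Il17rb was most like Il2ra (0.97), the CD25 gene used in the natural helper cell gate, Tnfrsf25 (0.97) and Acsbg1 (0.97). Crlf2 was most like Srgn (0.97), which encodes the granule proteoglycan serglycin, Ehbp1l1 (0.95) and Gmfg (0.95), and Il1rap was most like the chemokine receptor Ccr1 (0.97), Abca1 (0.96) and Fcrla (0.94). Il1rl1 was most like Spty2d1 (0.93), Gtpbp1 (0.93) and Fam46a (0.92), Il18r1 like Inf2 (0.95), Glb1 (0.94) and Runx1 (0.93), Il18rap like Agap2 (0.91), S1pr4 (0.87) and Tet2 (0.87), and Tslp like Chmp5 (0.91), Myl3 (0.89) and Igf1 (0.88).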

How the data were processed

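The deposited table gives each gene symbol 1 value in each library, under headers that carry sample names and no unit. From the values and the tool these are FPKM rounded to whole numbers by the authors, recorded as a score because the rounding hides the original unit. TopHat 1.4.0, Cufflinks 1.3.0 and the mm9 build are named per the submitters' processing notes; annotation and filters are not given in the sources used here, and depth cannot be recovered. All 15 columns matched a label (0 left over). Digit-grouping commas were removed from 1008 cells and 3 cells next to 0 were set to 0.

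A gene needed at least 1 FPKM in 2 or more libraries, which 14257 genes met. These were tested as log2(FPKM + 1) with limma 3.58.1 in R 4.3.3: 1 coefficient per group over all 15 libraries (7 residual degrees of freedom), eBayes with trend, two-sided, Benjamini-Hochberg adjustment over all genes tested, threshold 0.05. The same fit gave the differences between papain responses. The script was tested on simulated data. Alternatives were pseudocounts of 0.5 and 5, no filter, median-ratio scaling, quantile normalization, only the compared groups, a replicate block and leaving out each library; a group left with 1 library is then assumed to vary like the others.

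The text names every one of the 8 genes, up to 3 called genes per pathway list and comparison in which a group averaged at least 5 FPKM, and the 3 genes most correlated with each of the 8. Genes and lists (6 pathway lists, 15 marker lists and the gene neighbourhood) were chosen with earlier results of these data known. Tslp sequence is not printed.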

Additional observations from a re-analysis of the deposited data

Results flagged for a closer look

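A direct test showed that 6 papain responses differed between cell types (limma, adjusted over 14257 genes). Between basophils and natural helper cells, the Il33 response differed by 4.01 (adjusted p = 0.0108; 1 and 0 to 20 and 32 FPKM in basophils, 2 and 2 to 2 and 3 in natural helper cells). The Il1rl1 response differed by -2.33 (adjusted p = 0.0115): both papain basophil libraries lay below the naive ones and both papain natural helper cell libraries above them. The same held for Il18r1, by -2.82 (adjusted p = 0.0129), and for Il18rap, by -4.75 (adjusted p = 0.00181). Between basophils and CD11c-negative eosinophils, the Il1rl1 response differed by -2.53 (adjusted p = 0.0139) and that of Il18rap by -2.73 (adjusted p = 0.0175). Basophil marker sums were 5826 and 4982 FPKM before and 592 and 1756 after papain in basophils. They fell there along with Il1rl1, Il18r1 and Il18rap, while Il33 rose. Marker sums that rose with Il33 in basophils were those of fibroblasts (3 to 11 before, 228 to 810 after papain) and blood endothelium (1 to 12 before, 104 to 304 after). The part of these markers was not tested. Leaving out 1 library ended 4 of the 6 calls, those of Il33 and Il18r1 against natural helper cells and both against eosinophils.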

How the results depend on the processing

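No direction of a called value reversed in any alternative. With only the compared groups fitted, the count of the 8 genes called became 1 for papain in basophils (5 in the fit of all libraries), 1 in CD11c-positive eosinophils (2), 1 between naive basophils and eosinophils (2), 4 between naive natural helper cells and basophils (6) and 4 against eosinophils (6), 5 between papain natural helper cells and CD11c-negative eosinophils (6), 2 between papain natural helper cells and basophils (5), and 1 for the difference of natural helper cell and CD11c-negative eosinophil responses (0). With a pseudocount of 5 it became 1 for papain in natural helper cells, 0 in CD11c-negative eosinophils and 4 between papain basophils and CD11c-negative eosinophils. Leaving out 1 library gave 3 to 5 genes for papain in basophils, 0 to 1 in natural helper cells, 0 to 1 in CD11c-negative and 1 to 3 in CD11c-positive eosinophils. It gave 3 to 5 for papain natural helper cells against basophils, 3 to 5 against CD11c-negative eosinophils, and 2 to 4 for papain basophils against CD11c-negative eosinophils. For the differences of the basophil response from that of natural helper cells and of CD11c-negative eosinophils it gave 2 to 5 and 0 to 2. The cause of these changes was not tested, beyond the fewer libraries in those fits.

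Replicate numbers were not treated as pairs: over 21 pairs of groups and 4790 genes, same-numbered libraries' deviations correlated between -0.112 and 0.164. With a replicate block the count was 4 of 8 for papain in basophils and 4 for papain natural helper cells against papain basophils, and it equalled the unblocked count in the other 13 comparisons. The calls not made under the block were Crlf2 (adjusted p = 0.0539) and Il1rap (0.0607). Over all genes, papain in basophils gave 3705 calls (85.1% higher), between 490 and 3758 over the alternatives; the share that was higher was 65.5% under median-ratio scaling and 45.4% when quantiles were equalised. Papain in natural helper cells gave 112 calls, between 52 and 542 over the alternatives. With 2 libraries a group and unknown depth, differences of 1.61 (Il18r1 in natural helper cells) and 3.45 (Tslp in CD11c-positive eosinophils) missed the threshold, and values of 0 to 3 FPKM (Tslp, Il33 and Il1rap in natural helper cells) are limited by rounding.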
